A study of Mus musculus with 6 samples.

Results

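Glycophorin C and the proteins that tie it to the membrane skeleton were examined in tumour epithelial cells of mouse skin papillomas. The 8 genes were Gypc, Epb41, Mpp1, Add1, Add3, Sptan1, Sptbn1 and Ank3, and every probe set annotated to exactly 1 of these symbols was taken. Gypc was chosen by its measured difference between Sox2cKO and control arrays, so its values are a description here and carry no test. The 7 partners were listed for their known place beside glycophorin C in the red cell membrane, and the question was whether they shared that difference. No probe set carried the symbol Epb41 alone, and that gene was not analysed here. The other 7 genes had 24 probe sets, 1 of Gypc and 23 of 6 partners, among 18193 genes that the array names with a single symbol.

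Glycophorin C is a small sialic acid-rich glycoprotein that crosses the plasma membrane once. Its cytoplasmic tail binds protein 4.1, encoded by Epb41, and the palmitoylated scaffold p55, encoded by Mpp1, and these 3 proteins form a complex that anchors the membrane to the spectrin and actin network. Spectrin is a long rod of alpha and beta chains, adducins cap actin filaments and recruit spectrin to them, and ankyrins link spectrin to other membrane proteins. In epithelial cells the non-erythroid chains Sptan1 and Sptbn1 and ankyrin G, encoded by Ank3, line the lateral membrane.

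Cells came from papillomas induced with chemicals in 2 groups of mice, both given tamoxifen for 1 week. The Sox2cKO mice carried K14CREER, a tamoxifen-activated Cre driven by the keratin 14 promoter of basal keratinocytes, and the floxed SOX2fl/fl alleles. Controls are labelled only as tamoxifen-treated control mice, without their alleles. Epcam+ alpha6+ cells lacking CD45, CD31 and CD140a were sorted and hybridised to Affymetrix mouse whole-genome arrays, 3 per group, which the design text describes as 3 biological experiments. The labels give neither the age of the mice nor the number pooled per array.

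Values are log2 intensities, 1 per probe set and array, and a difference of 1 is a 2-fold change in intensity. Background lay near 3.30 to 3.44, the values of a bacterial control transcript, and each array's 40th percentile at 4.90 to 4.95. Sox2 read 7.19, 8.31 and 8.18 in controls and 4.07, 4.63 and 3.23 in Sox2cKO, so every Sox2cKO array was below every control. The keratinocyte markers Krt5, Krt14, Trp63, Itga6, Itgb4, Cdh1 and Epcam averaged 12.02 to 12.07 in controls and 11.95 to 12.12 in Sox2cKO. Of these 7, 4 were above 0 and 3 below as Sox2cKO minus control. The lowest was the sort marker Epcam (-0.46), at 11.07, 11.42 and 11.43 in controls and 11.24, 10.72 and 10.57 in Sox2cKO. Xist, the RNA of the inactive X chromosome, was high only in control replicates 2 (12.03) and 3 (11.85), against at most 7.54 on the remaining arrays, and the Y-linked gene Eif2s3y showed the opposite division. Sex and genotype were therefore unevenly matched, and values against control replicate 1, the only control with the male pattern, are given below.

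Glycophorin C stood apart from its partners. Its only probe set, 1423878_at, read 5.02, 6.08 and 4.97 in control replicates 1 to 3 and 7.98, 7.67 and 9.03 in Sox2cKO replicates 1 to 3. The lowest Sox2cKO array was thus above the highest control by 1.59. Means were 5.36 ± 0.63 in controls and 8.22 ± 0.71 in Sox2cKO (SD, n = 3 each), a difference of 2.87 or 7.30-fold. This was the difference for which the gene was picked, the third highest of 23515 probe sets tested and the second highest of 13214 genes. Control replicate 2 was the highest control and Sox2cKO replicate 3 the highest array of all, and the spread within groups was wider than in 97.2% of tested probe sets. All 6 arrays read Gypc above their 40th percentile, but control replicates 1 and 3 lay close to it, so the fold rests on control values near the low end of the tested range. Between arrays of the same replicate number Gypc differed by 2.96, 1.59 and 4.06, and against control replicate 1 alone by 3.21.

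**Figure D1:**
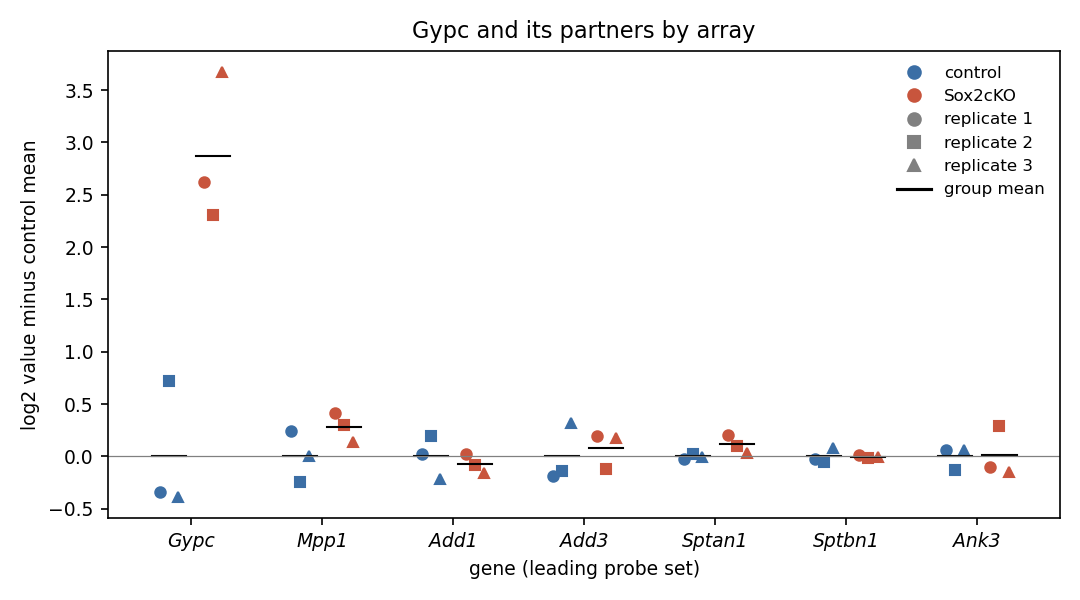
Log2 value of Gypc and of the leading probe set (highest mean) of each partner on each array, after subtraction of that probe set's control mean. Colours mark the group, shapes the replicate number and bars the group mean. The Sox2cKO arrays of Gypc lie above every control by at least 1.59, while no partner mean shown differs by more than 0.28.

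The partners showed no difference of that kind. Of their 23 probe sets 20 passed the intensity filter, which required at least 3 of the 6 arrays above the array's 40th percentile, and they covered all 6 partners. Differences, Sox2cKO minus control, ran from -0.20 to 0.28 with a median of 0.05, where the median over all 23515 tested probe sets was 0.01. Of the 20 probe sets 13 were above 0 (65.0%, against 52.2% of all tested). None of the 20 had an adjusted p under 0.05 in limma, and 0% of all tested probe sets did (the smallest adjusted p overall was 0.152). Sox2 differed by -3.92 and had an adjusted p of 0.245 in the same limma fit. A missing call therefore does not show a missing difference. All 20 partner probe sets had an adjusted p of 1.00, and at an unadjusted p under 0.05 there were 0 of 20 and 687 of 23515. The 95% confidence intervals come from the same limma fit and are not adjusted for the number of probe sets. The highest upper limit of the 20 was 0.67 and the lowest lower limit -0.55, against the 2.87 of Gypc.

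The 3 Sox2cKO values lay above the 3 control values in 1 of the 20 partner probe sets, that of Sptan1 described below, where this held for 3.10% of all tested probe sets. The reverse held for 0 of 20, against 3.16% of all tested. Within pairs of the same replicate number the median partner difference was 0.03, 0.04 and 0.03. The highest single partner value in the 3 pairs was 0.38, 0.78 and 0.34. Gypc, chosen by its difference on these same arrays, differed by 2.96, 1.59 and 4.06. Against control replicate 1 alone 10 of 20 partner probe sets were above 0, with a median of -0.02 and a range of -0.20 to 0.26.

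**Figure D2:**
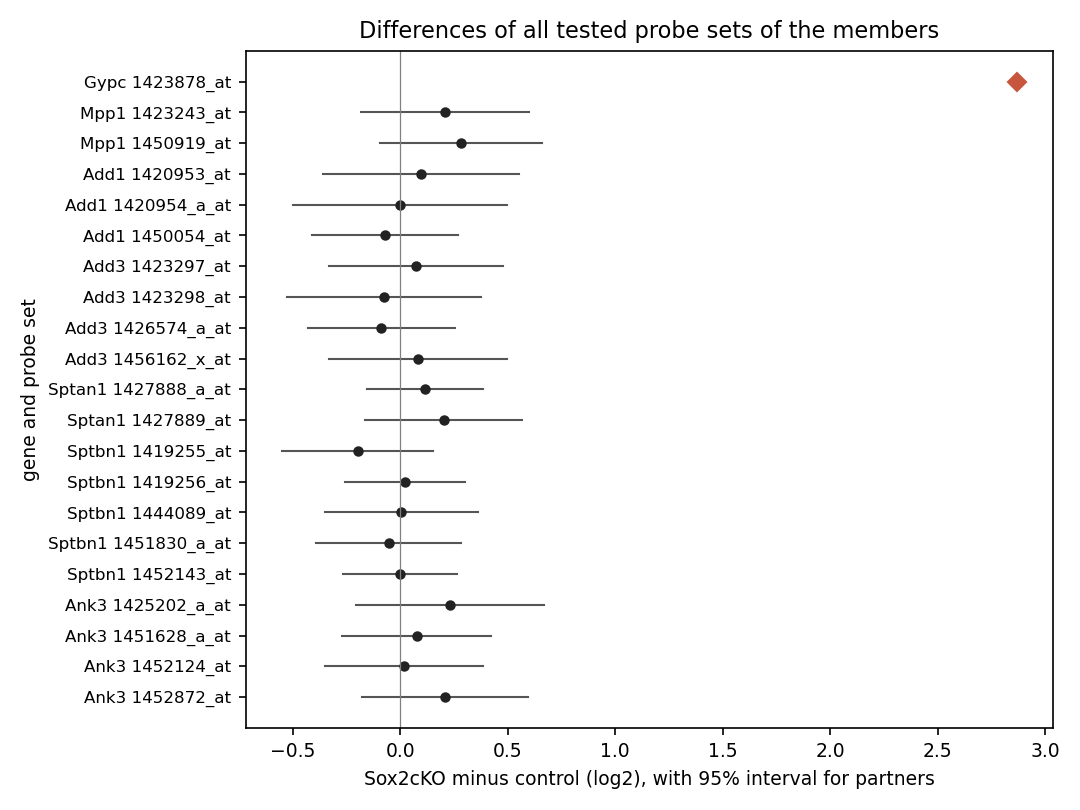
Difference between group means (Sox2cKO minus control, log2) of each tested probe set, with the 95% confidence interval from limma for the 20 partner probe sets. Gypc is shown without an interval because it was chosen by this difference. All 20 partner intervals include 0 and lie between -0.55 and 0.67, while Gypc lies at 2.87.

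Mpp1 encodes p55, the scaffold that binds both glycophorin C and protein 4.1, and had the largest positive difference among the partners. Its leading probe set, 1450919_at, read 9.93, 9.44 and 9.69 in controls and 10.10, 9.99 and 9.82 in Sox2cKO. Control replicate 1 lay above Sox2cKO replicate 3, so the groups overlapped. The difference was 0.28 with a standard error of 0.16 (95% interval -0.10 to 0.66, adjusted p 1.00 in limma). The second probe set, 1423243_at, which lay near the 40th percentile, read 4.70 to 5.26 in controls and 5.11 to 5.31 in Sox2cKO, a difference of 0.21. Both probe sets followed the same course over the 6 arrays (r = 0.825, n = 6 arrays). Mpp1 lies on the X chromosome, and both Xist-high controls read lower than control replicate 1 in both probe sets. Against that control alone the differences were 0.04 and -0.05. The part of the sex pattern in the Mpp1 values was not tested.

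Both spectrin chains are large rod proteins, and 3 of their probe sets had the smallest standard errors of the 20 (0.11 to 0.12). Sptan1, the alpha chain of non-erythroid spectrin, read 10.22, 10.27 and 10.24 in controls and 10.45, 10.35 and 10.28 in Sox2cKO with 1427888_a_at. The groups were apart, but by only 0.0093, and the difference of 0.11 (standard error 0.12) had an adjusted p of 1.00 in limma. Its other probe set, 1427889_at, read 9.83, 9.75 and 9.52 in controls and 10.04, 10.00 and 9.67 in Sox2cKO, where control replicates 1 and 2 lay above Sox2cKO replicate 3. Sptan1 was higher in Sox2cKO in every same-number pair with both probe sets, by 0.04 to 0.25.

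Sptbn1, the beta chain that pairs with Sptan1, was nearly the same in all arrays with its leading probe set. That probe set, 1452143_at, read 10.86, 10.83 and 10.97 in controls and 10.90, 10.87 and 10.88 in Sox2cKO. The group means were 10.88 ± 0.07 and 10.88 ± 0.01 (SD, n = 3 each), and the 95% interval of the difference was -0.27 to 0.26. The 4 other tested probe sets differed by -0.20 to 0.02. The lowest, 1419255_at, read 7.61, 8.03 and 7.86 in controls and 7.66, 7.74 and 7.50 in Sox2cKO, with overlapping groups. The 5 probe sets did not follow a common course, with correlations between them from -0.805 to 0.941 over the 6 arrays (median -0.237), so their small differences had no shared direction. A sixth, 1441507_at, read 3.77 to 3.98 on every array, near background, and was not tested.

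Adducins cap the fast-growing ends of actin filaments, and the 7 probe sets of Add1 and Add3 differed by -0.09 to 0.10. Add1, alpha adducin, read 9.36, 9.54 and 9.13 in controls and 9.37, 9.27 and 9.19 in Sox2cKO with 1450054_at. The Sox2cKO arrays lay inside the range of the controls, and the difference was -0.07 with a 95% interval of -0.41 to 0.27. The other probe sets of Add1 differed by 0.10 and -0.0016, and the 3 followed a common course over the arrays (r from 0.715 to 0.948), with control replicate 3 lowest in each. Add3, gamma adducin, read 7.34, 7.39 and 7.84 in controls and 7.72, 7.40 and 7.70 in Sox2cKO with its leading probe set, 1456162_x_at. Affymetrix gives the x suffix to probe sets that can cross-hybridise to other transcripts. The 3 other probe sets of Add3 differed by -0.09 to 0.07, and correlations among the 4 ran from -0.770 to 0.536.

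Ank3 encodes ankyrin G, which holds E-cadherin and ion transporters to the spectrin lattice. Its leading probe set, 1452124_at, read 9.48, 9.29 and 9.48 in controls and 9.32, 9.71 and 9.27 in Sox2cKO, a difference of 0.02 (95% interval -0.35 to 0.39). All 4 tested probe sets were above 0, at 0.02 to 0.23. Each was highest in Sox2cKO replicate 2, and they followed a common course over the arrays (r from 0.495 to 0.832). In the pair of replicate 2 they differed by 0.42 to 0.78, and in the other pairs by -0.21 to 0.13. Without Sox2cKO replicate 2 the leading probe set differed by -0.12. The other probe sets of Ank3, 1447259_at and 1457288_at, failed the filter at 4.14 to 4.85. The second read 4.41 to 4.53 in controls and 4.21 to 4.33 in Sox2cKO, so it was lower in every Sox2cKO array, at a level close to background.

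Among the partner probe sets the correlation with Gypc over the 6 arrays ran from -0.516 (Sptbn1 1419255_at) to 0.628 (Sptan1 1427888_a_at), and 12 of 20 were above 0. The arrays are shared by all genes and differ in group, so these values describe likeness only. The 6 genes whose leading probe set was most like that of Gypc, among 1687 genes spanning at least 1 on the log2 scale, were Sirt1 (r = 0.946), Gpr176 (0.901), Rhbdl2 (0.899), Eml5 (0.895), Col5a1 (0.891) and Plat (0.884). These values span both groups and so include the difference between group means. Within groups, after subtraction of the group means, they were 0.647, 0.630, 0.393, 0.903, 0.782 and 0.462 in the same order of genes. The 6 genes encode a deacetylase, an orphan G protein-coupled receptor, a rhomboid protease, a microtubule-associated protein, a fibrillar collagen chain and tissue plasminogen activator. Plat read 7.11, 6.85 and 6.88 in controls and 7.99, 7.33 and 8.16 in Sox2cKO, with groups apart. Eml5 read 5.51, 6.17 and 5.22 in controls and 6.03, 6.31 and 6.88 in Sox2cKO, and its control replicate 2 lay above Sox2cKO replicate 1. The other tested probe sets of Rhbdl2 (-0.42 and -0.28) and of Plat (-0.17) pointed the opposite way, whereas those of Eml5 (0.06 to 0.28) and Col5a1 (0.28 and 0.62) pointed the same way.

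The wider membrane skeleton was read from 46 further genes in 5 lists, of which 42 had a probe set of their own and 34 passed the filter. With 1 probe set per gene, 18 of 34 were above 0 and 16 below, with a median of 0.01, where the median over 13214 genes was 0.0027 and 50.6% were above 0. In limma 0 of the 34 had an adjusted p under 0.05, and 1 had an unadjusted p under 0.05, as had 333 of all 13214 genes. Groups did not overlap in 4 of the 34, against 5.85% of all genes, 2 of them higher and 2 lower in Sox2cKO.

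Of the 6 relatives of protein 4.1, which share its membrane-binding domain, 3 were above 0 and 3 below, with a median of -0.08. Epb41l1, the form best known from neurons, read 7.31, 6.96 and 7.05 in controls and 7.53, 7.51 and 7.46 in Sox2cKO, with groups apart and a difference of 0.39 (standard error 0.14, adjusted p 1.00 in limma). Its other tested probe sets differed by -0.15 and 0.49. Of 7 scaffolds related to p55, 6 were above 0, with a median of 0.07. Mpp3 read 4.80 to 5.01 in controls and 5.04 to 5.10 in Sox2cKO, near the 40th percentile, with groups apart by 0.03. Mpp6, also called Pals2, read 9.47, 9.50 and 9.54 in controls and 9.39, 9.25 and 9.40 in Sox2cKO, a difference of -0.16, and its other tested probe sets both differed by -0.50.

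Of 5 adducin, spectrin and ankyrin paralogues, 1 was above 0, with a median of -0.03, and of 8 actin, tropomyosin, tropomodulin and dematin genes 4 were above 0, with a median of 0.0039. Of 8 membrane proteins that the red cell skeleton holds, 4 were above 0, with a median of -0.0030. Cd47, the surface signal that inhibits engulfment by phagocytes, read 9.99, 10.22 and 9.89 in controls and 9.74, 9.88 and 9.74 in Sox2cKO, with groups apart by 0.02. The difference of -0.25 (standard error 0.13) had an adjusted p of 1.00 in limma, and its 3 other tested probe sets were also below 0, at -0.39 to -0.07. With the 1 probe set per gene used for these counts, the 34 differences ran from -0.29 to 0.39. Other tested probe sets of the same genes ran from -0.64 (Tpm1) to 0.49 (Epb41l1).

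**Figure D3:**
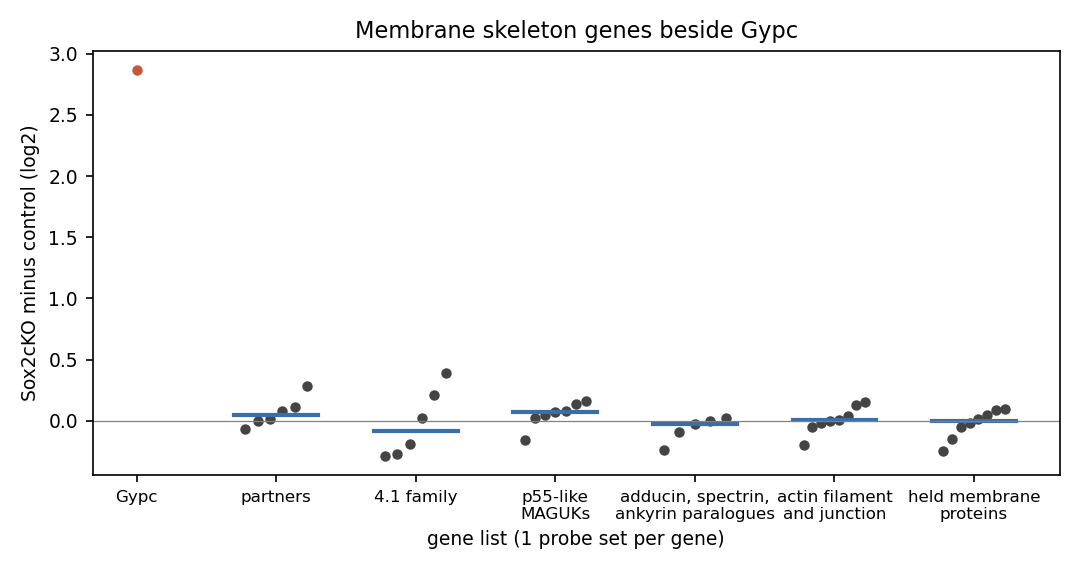
Difference (Sox2cKO minus control, log2) of Gypc, of the 6 partners measured and of 34 other membrane skeleton genes in 5 lists, with 1 probe set per gene. Horizontal bars are list medians, which lie between -0.08 and 0.07, and the 34 genes of the lists lie between -0.29 and 0.39.

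Gypc is also active in red cells, leukocytes and stromal cells, so markers of other cell types were read beside it. In sorted bulk cells, more cells of a type and more RNA per cell cannot be told apart. Erythroid markers were low in both groups. Of 11 with a probe set of their own 4 passed the filter, and these averaged 5.09 to 5.31 in controls and 5.09 to 5.34 in Sox2cKO. Hba-a1, Gata1, Slc4a1, Rhag, Epb42, Hemgn and Trim10 failed the filter, and Rhag lay at 3.11 to 3.27 on every array. Leukocyte markers averaged 5.71 to 5.87 in controls and 5.72 to 6.10 in Sox2cKO, with 7 of 10 above 0 and Ptprc, which encodes CD45, at 4.58 to 5.51. Endothelial markers averaged 5.81 to 6.04 over the 6 arrays, with 2 of 5 above 0.

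Fibroblast and pericyte markers read higher in Sox2cKO beside Gypc. All 13 tested were above 0, 5 of them with groups apart (361 of all 13214 genes were apart in that direction), with a median of 1.02, although none had an adjusted p under 0.05 in limma. At an unadjusted p under 0.05 in limma there were 333 of all 13214 genes and 8 of these 13 markers. Their mean log2 value was 8.27, 8.28 and 7.55 in control replicates 1 to 3 and 8.43, 8.81 and 9.79 in Sox2cKO replicates 1 to 3. Both Gypc and the mean of these markers were highest in Sox2cKO replicate 3, and without that array Gypc differed by 2.46. Postn (12.10) and Thy1 (7.38) were instead highest in Sox2cKO replicate 1. In the pair of replicate 1 the marker mean differed by 0.17 and Gypc by 2.96, while in the pairs of replicates 2 and 3 the marker mean differed by 0.53 and 2.24 and Gypc by 1.59 and 4.06. Single markers went both ways in the pair of replicate 1, from -0.19 (Col1a1) to 0.82 (Thy1). Averaged over their list, markers of Langerhans and dendritic cells read lower in 2 of the 3 pairs. Of 5 tested 4 were below 0, with a median of -1.09, led by the MHC class II genes H2-Aa (-1.38) and H2-Ab1 (-1.26), while Cd207, the defining Langerhans marker, lay at 4.81 to 5.18 on every array. Itgax, also listed, failed the filter at 4.31 to 4.63 and is not among these 5 markers. The mean of these markers differed by -1.46, 0.0040 and -1.38 in the pairs of replicates 1 to 3. It was thus not lower in the pair of replicate 2. There H2-Aa (0.33), Cd207 (0.15) and H2-Eb1 (0.09) were higher in Sox2cKO, while H2-Ab1 (-0.48) and Cd74 (-0.06) were lower. Groups were apart for H2-Ab1 and Cd74, both lower in Sox2cKO (412 of all 13214 genes were apart in that direction). No marker of this list passed the adjusted threshold in limma, and 4 of the 5 had an unadjusted p under 0.05. The part of either cell type in the Gypc values was not tested.

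**Figure D4:**
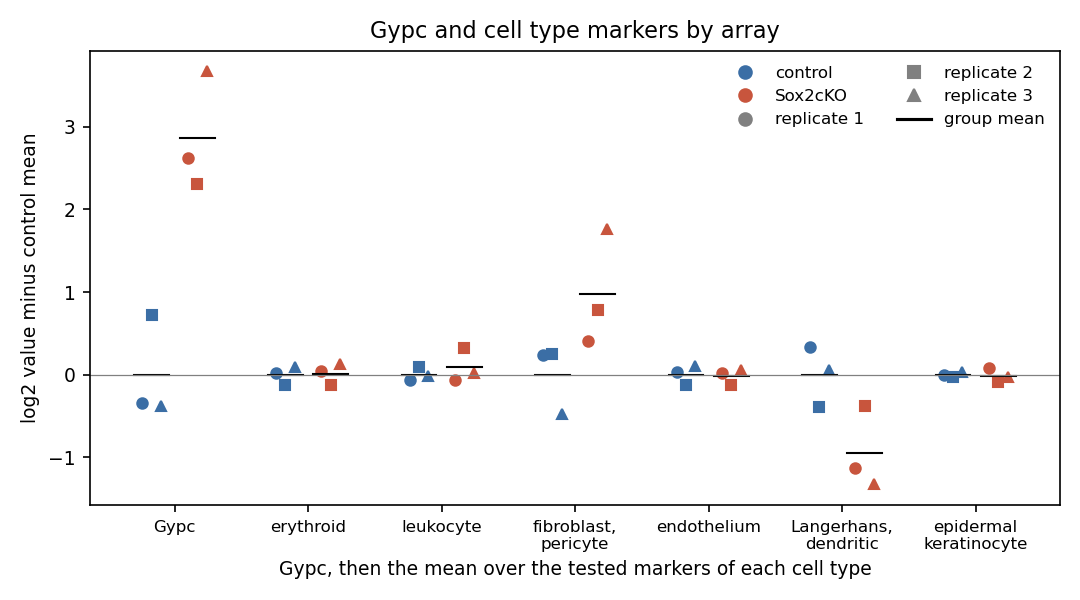
Log2 value of Gypc and mean log2 value over the tested markers of 6 cell types on each array, after subtraction of the control mean. Colours mark the group, shapes the replicate number and bars the group mean. The mean of the fibroblast and pericyte markers is 0.17, 0.53 and 2.24 higher in Sox2cKO in the 3 same-number pairs, where Gypc is 2.96, 1.59 and 4.06 higher.

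The promoter sequences at hand allowed the letters bound by SOX factors to be looked up beside these values. RefSeq promoters of build GRCm38.p6, from 250 bases before to 50 after a start site, were taken for 6 of the 8 genes. There were 11 promoters in all, and none was taken for Gypc or Ank3. Member promoters on the chromosome of Gypc were left out beforehand, so its promoter was not examined. The 11 promoters taken were searched on both strands for ACAATG and ACAAAG, core sequences of SOX binding sites. Either was found in 5 of the 11, of which 2 belong to Epb41, which has no expression value here, and in 28.6% of 32851 promoters of the same length. These 2 promoters are printed because they come from the partner with the largest positive difference and from the partner with the steadiest leading probe set. Capitals mark the matches, each sequence runs 5′ to 3′ in the direction of its gene, and both lie on the minus strand, at chrX:75130967-75131266 for Mpp1 and chr11:30198208-30198507 for Sptbn1.
Mpp1: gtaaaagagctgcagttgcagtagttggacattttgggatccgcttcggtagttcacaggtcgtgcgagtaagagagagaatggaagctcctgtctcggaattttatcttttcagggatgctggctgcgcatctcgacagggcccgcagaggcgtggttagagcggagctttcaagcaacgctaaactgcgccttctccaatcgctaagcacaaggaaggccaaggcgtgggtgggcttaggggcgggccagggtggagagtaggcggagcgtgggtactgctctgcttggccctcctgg
Sptbn1: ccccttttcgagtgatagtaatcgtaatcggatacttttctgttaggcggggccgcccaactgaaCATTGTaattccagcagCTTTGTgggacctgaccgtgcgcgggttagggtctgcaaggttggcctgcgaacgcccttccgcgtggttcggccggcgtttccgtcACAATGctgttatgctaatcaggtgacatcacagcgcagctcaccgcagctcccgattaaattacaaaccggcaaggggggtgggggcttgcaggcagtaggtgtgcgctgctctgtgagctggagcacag
Of the 2 promoters of Sptbn1 the one with more matches is printed, and the other held 1. The Mpp1 promoter held 0 matches and the printed Sptbn1 promoter held 3, 2 of ACAATG and 1 of ACAAAG, at bases -185, -168 and -81 from the start site. A match is a stretch of letters, not a bound site.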

How the data were processed

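Arrays of sorted papilloma epithelial cells were compared, 3 control and 3 Sox2cKO. The authors deposited 1 value per probe set and array on a log2 scale, read so from the range of the values. Per the submitters' processing notes R 2.14.0 was used, and the background correction, summarising and normalization between arrays are not given in the sources used here. Array medians lay at 5.42 to 5.46, so a shift shared by most genes would not be seen. Scanner files were not used here.

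Probe sets were named from the platform annotation, and of 45101 probe sets 34945 had exactly 1 gene and 932 several. Of the former, 23515 (13214 genes) had at least 3 of 6 arrays above the array's 40th percentile and were tested. The leading probe set of a gene is the tested one with the highest mean. Differences are Sox2cKO minus control, tested with lmFit and eBayes of limma 3.58.1 under R 4.3.3, two-sided, with Benjamini-Hochberg adjustment over all 23515 probe sets and a threshold of 0.05. The procedure was checked on simulated data. The number of arrays limits the precision.

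Members, gene lists and tests were chosen with earlier results of these data known. Besides all member probe sets, the text names Sox2, Xist, Eif2s3y, the sort markers, up to 3 genes per skeleton list with groups apart, and the 6 genes most correlated with Gypc (span of at least 1, unnamed clones excluded). Other genes were named after their values were seen.

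Arrays of the same replicate number deviated together from their group means over the tested probe sets (correlation 0.216 to 0.285 for the 3 pairs, -0.309 to 0.037 for other numbers). As all 3 exceeded 0.1, the numbers were treated as pairs, and the replicate number was also fitted as a block. Other alternatives were the intensity filter, 16 added on the linear scale, a second quantile normalization, eBayes with trend and robust settings, a covariate for the Xist-high arrays, 1 probe set per gene, and leaving out each array.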

Additional observations from a re-analysis of the deposited data

How the results depend on the processing

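Gypc, chosen by its difference of 2.87, differed by 2.46 with 16 added on the linear scale, by 3.21 with the Xist-high covariate, and by 2.46 to 3.23 when single arrays were left out. No partner probe set passed an adjusted p of 0.05 in limma under any alternative (lowest 0.791, without control replicate 1), and none differed by more than 0.40 in either direction. With the replicate block 0 probe sets passed over all tested and the lowest adjusted p of a partner was 0.905, so the pairing changed no call, and probe sets at an unadjusted p under 0.05 numbered 1342 against 687. Over all probe sets 1 passed with the Xist-high covariate (Ostf1), and 0 to 5 passed when single arrays were left out. The 5, found without control replicate 1, were probe sets of the sex-linked genes Eif2s3y, Uty, Xist and Kdm5d, and 1 (Esr1) passed without Sox2cKO replicate 3.

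The direction of the small partner differences was not stable. Of 20 partner probe sets 13 were above 0, 14 with a second quantile normalization, 10 with the Xist-high covariate (45.5% of all tested), and 10 to 15 without single arrays. Of 34 other skeleton genes 18 were above 0, and 13 to 23 without single arrays. With the Xist-high covariate, which sets Sox2cKO against control replicate 1, the sign turned for Mpp1 1423243_at (-0.053), Add1 1420953_at (-0.15), Add3 1423297_at (-0.16), Ank3 1452124_at (-0.048) and Sptbn1 1419255_at (0.027), 1419256_at (-0.075), 1444089_at (-0.20), 1451830_a_at (0.0019) and 1452143_at (0.023). It turned for Add1 1420954_a_at with a second quantile normalization (0.0074). The cause was not tested.

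Without single arrays the sign turned within these ranges. Those of Add1 were -0.077 to 0.22 (1420953_at), -0.23 to 0.17 (1420954_a_at) and -0.18 to 0.027 (1450054_at). Those of Add3 were -0.061 to 0.19 (1423297_at), -0.23 to 0.12 (1423298_at) and -0.0099 to 0.24 (1456162_x_at). Those of Sptbn1 were -0.035 to 0.068 (1419256_at), -0.12 to 0.11 (1444089_at), -0.14 to 0.029 (1451830_a_at) and -0.030 to 0.039 (1452143_at). Those of Ank3 were -0.0185 to 0.15 (1451628_a_at) and -0.12 to 0.10 (1452124_at). Mpp1 1450919_at (0.16 to 0.40), both Sptan1 probe sets (0.070 to 0.15 and 0.11 to 0.32) and Ank3 1425202_a_at (0.046 to 0.33) and 1452872_at (0.075 to 0.35) stayed above 0 without any single array and with the Xist-high covariate. Add3 1426574_a_at (-0.20 to -0.0050) stayed below 0 in the same settings. Ank3 1425202_a_at was 0.23 with all arrays and 0.046 without control replicate 2. Control values near the 40th percentile limit what Mpp1 1423243_at and Gypc can show of the size of a difference.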

Other observations

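Among the membrane proteins of the list that failed the intensity filter, Aqp1, the water channel of red cells, endothelium and some fibroblasts, read 4.86, 4.64 and 4.28 in controls and 4.85, 5.64 and 6.35 in Sox2cKO replicates 1 to 3. Sox2cKO replicate 1 lay inside the range of the controls, and replicate 3, in which the mean of the fibroblast and pericyte markers was highest (9.79), was the highest array. Pdgfra, the gene of the sort marker CD140a, read 5.52, 5.32 and 5.05 in controls and 5.49, 6.21 and 7.25 in Sox2cKO, the same order of Sox2cKO arrays as Aqp1. Gypc read 7.98, 7.67 and 9.03 in Sox2cKO replicates 1 to 3 (SD 0.71), so it was also highest in replicate 3. Its likeness to Aqp1 and Pdgfra was not tested. Aqp1 was named after its values were seen, and no test was made of it.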
